A study of Mus musculus with 12 samples.

Results

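Ecm1 and Adamtsl4 are adjacent genes on mouse chromosome 3, and both had far higher signals in naive CD4+ T cells given interleukin-7 (IL-7) than in the same kind of cells before it. The values described here are those of Ecm1, Adamtsl4 and 5 genes close by on the chromosome, Rprd2, Prpf3, Ensa, Golph3l and Arnt. These are 7 of the 19057 genes named on the array, and they carry 22 of its 45281 probes. Ecm1 and Adamtsl4 were selected on their signals at 6 h and 24 h against 0 h, which were much higher after IL-7, and the other 5 for lying near them, so the Ecm1 and Adamtsl4 values in naive cells are a description with no test. The question was whether the genes around them follow.

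The cells came from spleens of mice 2 months old. The sample labels give the strain as B6.Cg-Tg(TcraTcrb)425Cbn/J, which carries a transgenic T cell receptor, while the design text names C57BL/6, which leaves the strain unsettled. One experiment exposed naive CD4+ T cells to IL-7 for 0, 6 or 24 h (2 arrays per time). In the other, IL7 Th9 cells, made from naive cells given IL-7 for 48 h and then grown for 3 days under Th9 conditions, stood against Th9 cells grown without that IL-7 (3 arrays per group). The naive cells at 0 h are the only ones of their experiment without IL-7, so IL-7 and time in culture cannot be told apart there.

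IL-7 is a survival cytokine of naive T cells. Its receptor works through the kinases Jak1 and Jak3 and the transcription factor STAT5. Ecm1 encodes extracellular matrix protein 1, a secreted glycoprotein that in mouse Th2 cells has been linked to interleukin-2 receptor signalling and to exit from lymph nodes. Adamtsl4 encodes a secreted ADAMTS-like protein, which has the ancillary domains of the ADAMTS proteases without the protease itself and binds fibrillin microfibrils. Th9 cells are the helper T cells named for interleukin-9.

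The mean deposited signal of an array lay between 157.6 and 245.2 in the naive experiment and between 116.1 and 221.6 in the Th9 experiment, and 28.3% to 34.5% of probes were detected, meaning a deposited detection p-value under 0.01. The correlation between replicates was 0.976 at 6 h and 0.983 or more elsewhere. Of 9 T cell identity markers with a probe, 8 were detected in every group. The array of 6 h replicate 1 stood apart: the summed signal of 13 myeloid and dendritic cell markers was 10518.2 on it and 306.9 on 6 h replicate 2, against 624.9 and 641.8 on the 0 h arrays, and 11 of the 13 were highest there among the 6 naive arrays. The 6 B cell markers summed to 404.6 and 97.9 on the 6 h arrays, against 163.4 and 110.2 at 0 h, and 2 erythroid markers to 1414.5 and 163.3, against 476.4 and 349.1. The T cell identity markers summed to 23138.1 and 25736.9 at 6 h and 31863.7 and 26145.9 at 24 h, against 49873.9 and 38245 at 0 h. Natural killer cell markers summed to 586.3 and 1021.4 at 6 h and 1925.8 and 1224.8 at 24 h, against 2630 and 2002.6 at 0 h. The 2 CD8 T cell markers summed to 1063.1 and 1367.7 at 6 h and 1597.3 and 1158.6 at 24 h, against 1999 and 1486.1 at 0 h. Of these, Cd8b1 was detected in every group and Cd8a in none. All these sums are of deposited signals before normalisation, so they also vary with the brightness of the array. The mean deposited signal was 245.2 and 197.6 on the 0 h arrays, 157.6 and 191.6 at 6 h, and 219.3 and 172.9 at 24 h. The part of these shifts in the results was not tested. In bulk RNA, fewer cells of a type and less RNA per cell cannot be told apart. Nothing in the labels ties replicates to separate animals or cultures, so the p-values reflect the spread between these arrays alone, which may be technical. The labels' descriptions give 1 BeadChip for each experiment, so a level in naive cells set against one in Th9 cells also crosses chips.

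On the chromosome, Adamtsl4, Ecm1 and Tars2 lie in this order with no other protein-coding gene between them, and all 3 are transcribed from the minus strand. Tars2 encodes the mitochondrial threonyl-tRNA synthetase and is described below as the other immediate neighbour of Ecm1. The 250 bases before the annotated start of each (RefSeq, GRCm38.p6) are shown because the 3 genes moved in the same arrays. They are Ecm1 at chr3:95739570-95739819, Adamtsl4 at chr3:95687918-95688167 and Tars2 at chr3:95754978-95755227, all on the minus strand and written 5′ to 3′, with motif matches in capitals.
Ecm1: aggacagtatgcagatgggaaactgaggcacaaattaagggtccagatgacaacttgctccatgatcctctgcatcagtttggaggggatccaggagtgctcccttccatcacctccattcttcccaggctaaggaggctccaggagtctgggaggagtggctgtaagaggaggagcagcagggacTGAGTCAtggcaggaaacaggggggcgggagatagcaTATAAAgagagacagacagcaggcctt
Adamtsl4: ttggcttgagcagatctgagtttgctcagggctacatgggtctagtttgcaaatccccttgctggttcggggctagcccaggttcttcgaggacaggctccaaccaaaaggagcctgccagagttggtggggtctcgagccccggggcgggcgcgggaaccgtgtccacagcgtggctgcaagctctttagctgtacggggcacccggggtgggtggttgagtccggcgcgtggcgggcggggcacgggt
Tars2: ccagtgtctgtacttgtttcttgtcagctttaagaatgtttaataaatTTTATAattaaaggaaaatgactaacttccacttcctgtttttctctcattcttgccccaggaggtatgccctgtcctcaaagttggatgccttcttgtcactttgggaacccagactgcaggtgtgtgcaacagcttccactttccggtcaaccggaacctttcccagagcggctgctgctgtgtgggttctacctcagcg

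4 motifs were searched for on both strands. TTCNNNGAA is the element recognised by STAT factors. The AP-1 element was searched as TGANTCA. For the box bound by TATA-binding protein the letters were TATAAA, and the E-box was written CACGTG. The Ecm1 window held an AP-1 match at bases 64 to 58 before the start and a TATA box match at bases 27 to 22 before it, and these do not overlap. The Tars2 window held a TATA box match on the opposite strand, at bases 202 to 197 before the start, and the Adamtsl4 window held none of the 4. Among 32851 promoter windows of the same length, 6.7% held the AP-1 element, 12.4% the TATA box, 7.0% the STAT element and 6.0% the E-box. G and C made up 54.0% of the Ecm1 window, 64.4% of the Adamtsl4 window and 46.0% of the Tars2 window, against a mean of 53.2% over all windows. The matches describe letters in these windows and are not evidence of binding. In the windows of Rprd2, Ensa, Golph3l and Arnt none of the 4 motifs was found, and 1 of the 2 windows of Prpf3 held the E-box.

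Ecm1 is measured by 2 probes. The brighter, ILMN_2947526, had deposited signals of 260.2 and 199.5 at 0 h, 6951.4 and 9960.7 at 6 h, and 10031.9 and 10663.6 at 24 h. Both arrays at each later time lay far above both 0 h arrays, and the 6 h and 24 h arrays lay close together. On the normalised log2 scale the probe averaged 13.23 ± 0.25 at 6 h and 13.37 ± 0.26 at 24 h, against 7.82 ± 0.02 at 0 h (SD, n = 2 arrays each). These means give 42.6-fold at 6 h (log2 fold change 5.41, 95% interval 4.97 to 5.86) and 46.9-fold at 24 h (5.55, interval 5.10 to 6.00). Both intervals describe the spread between arrays and do not allow for the selection of Ecm1 on these values. The 6 h value was 5.57 without 6 h replicate 1. Between 24 h and 6 h the log2 fold change was 0.14 ± 0.18 (SE, interval -0.31 to 0.59), which is within the spread between arrays.

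The other Ecm1 probe, ILMN_1229746, was not detected at 0 h, where its signals were 12.5 and 10.8. They were 468.6 and 1008.1 at 6 h and 1057.1 and 971.4 at 24 h. This probe thus had the same pattern, and because 0 h gives only a bound it was at least 24.9-fold higher at 6 h and at least 31.5-fold higher at 24 h. Bounds set the undetected side at the lowest detected value of each array, or at the probe's own value where that is higher.

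Adamtsl4 has 1 probe, ILMN_2459899, with signals of 10.3 and 14.8 at 0 h, 218.5 and 662.4 at 6 h, and 770.3 and 573.1 at 24 h. It was not detected on either 0 h array and was detected on all 4 later ones, and the lower of its 6 h values came from the array with myeloid transcripts. The probe was at least 14-fold higher at 6 h and at least 20.8-fold higher at 24 h than at 0 h. Its normalised level was 8.85 ± 0.87 at 6 h and 9.42 ± 0.02 at 24 h (SD, n = 2 each). The 24 h mean exceeded the 6 h mean by 0.57 on the log2 scale (interval -0.34 to 1.49), less than the spread of the 6 h arrays.

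**Figure D1:**
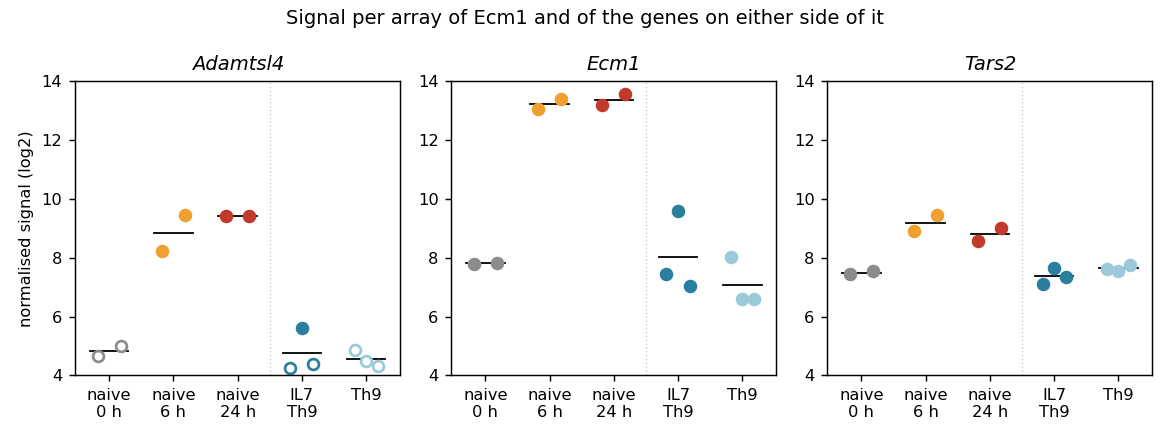
Normalised log2 signal (y axis) on each array of Adamtsl4, Ecm1 and Tars2, with groups along the x axis; filled points are detected arrays, open points undetected ones, bars group means, and the dotted line parts the experiments, which were normalised separately. In each panel the 4 arrays at 6 h and 24 h lie above the 2 arrays at 0 h, while IL7 Th9 and Th9 arrays overlap; levels are not comparable between panels.

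In the Th9 experiment Ecm1 was detected on all 6 arrays at a level that varied from array to array. The brighter probe had signals of 159.7, 510.0 and 126.8 in IL7 Th9 cells, against 342.9, 68.5 and 72.5 in Th9 cells. The groups overlapped, with 1 high array in each, IL7 Th9 replicate 2 and Th9 replicate 1. The log2 fold change was 0.95 ± 0.63 (SE, interval -0.48 to 2.37) and did not pass limma's test (adjusted p = 0.70). That interval includes differences up to 2.37 on the log2 scale, so a moderate difference was not detectable with 3 arrays per group. With 1 array left out the log2 fold change ran from 0.17 (without IL7 Th9 replicate 2) to 1.43 (without IL7 Th9 replicate 3), and it was called in none of these 6 fits. The dimmer Ecm1 probe was not detected on any of these arrays.

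Adamtsl4 was detected on 1 of the 6 arrays, at a signal of 21.8 in IL7 Th9 replicate 2. The other IL7 Th9 arrays had -7.3 and 1.3, and the Th9 arrays 19.4, 3.2 and -2.4. With so few detections the gene was below the filter and was not tested. For Ecm1 the difference between the 2 contrasts (24 h against 0 h in naive cells, minus IL7 Th9 against Th9) was 4.82 on the log2 scale (interval 2.92 to 6.72). It is given with no test, because it reuses the 24 h values on which Ecm1 was selected, and the interval does not allow for that. No such difference is given for Adamtsl4, whose 0 h and Th9 values lie on the detection floor.

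**Figure D2:**
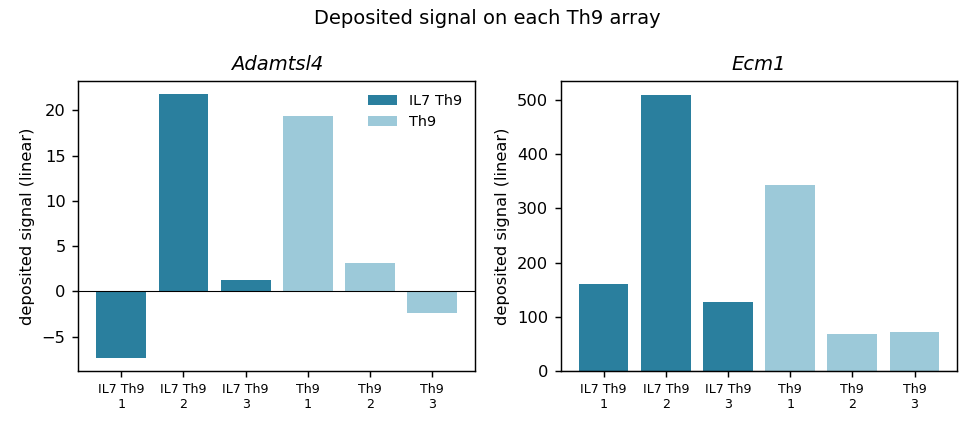
Deposited signal on a linear scale (y axis) of the Adamtsl4 probe and the brighter Ecm1 probe on each of the 3 IL7 Th9 and 3 Th9 arrays (x axis, replicate number under the group). For Ecm1 the groups overlap, with the tallest bars at 510.0 in IL7 Th9 cells and 342.9 in Th9 cells, and for Adamtsl4 the array at 21.8, IL7 Th9 replicate 2, is the only one detected.

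With all 12 arrays normalised together, the order of Ecm1 levels was 24 h (13.27 ± 0.25), 6 h (13.13 ± 0.23), IL7 Th9 (8.33 ± 1.30), 0 h (7.53 ± 0.02) and Th9 (7.41 ± 0.80; log2 mean ± SD, n = 2 arrays per time and 3 per Th9 group). The first pair of groups in this order did not differ beyond their spread, nor did the last 3 groups. Adamtsl4 had 9.19 ± 0.02 at 24 h and 8.59 ± 0.90 at 6 h. In the other 3 groups it was undetected on all arrays but 1, and their means have no order.

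Patterns were compared by the root mean square difference of the 5 group means, each gene centred on its own mean, over 9361 genes. Adamtsl4 was the gene nearest to Ecm1, at 0.70 on the log2 scale, which is a description since both were chosen for this pattern. Next came 8430426J06Rik at 0.94, the actin motor gene Myo6 at 0.98, the membrane protein gene Ms4a6d at 1.36 and the lysophospholipid receptor gene Gpr34 at 1.40. From Adamtsl4, the nearest were 8430426J06Rik (0.37), Myo6 (0.50), Ecm1 (0.70), Gpr34 (0.72) and Ms4a6d (0.81). The distance understates differences of genes that were undetected in some groups, Adamtsl4 among them, because undetected signals lie on a floor.

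None of the 5 other named genes was called in naive cells, where a call is a limma adjusted p under 0.05 over all 11065 features tested. The background was 9.43% of features called at 6 h against 0 h (4.1% higher and 5.32% lower) and 6.16% at 24 h against 0 h (3.3% higher and 2.86% lower). At an unadjusted p under 0.05, 2 of the 5 passed at 6 h (Rprd2 and Prpf3, in opposite directions) and 0 at 24 h, beside 3234 and 2800 of the 11065 features. The brightest probes of the 5 had log2 fold changes between -0.31 and 0.73 at 6 h and between -0.18 and 0.54 at 24 h, far below those of Ecm1 and Adamtsl4. Both of these times share the 0 h arrays.

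Rprd2, whose protein binds the tail of RNA polymerase II, lies just beyond Tars2. Its tested probe had signals of 67.2 and 54.4 at 0 h, 60.2 and 137.3 at 6 h, and 103.8 and 79.8 at 24 h. By deposited signal the 6 h and 0 h arrays overlap, while after normalisation both later times lie above 0 h. The log2 fold change was 0.73 ± 0.24 at 6 h (adjusted p = 0.11) and 0.54 ± 0.24 at 24 h (adjusted p = 0.22). Without 6 h replicate 1, the array with myeloid transcripts, the log2 fold change was 1.10 at 6 h and 0.54 at 24 h. In that fit the lone 6 h array is assumed to vary like the others. Rprd2 was called at both times there, and also at 24 h without 6 h replicate 2. Each of these fits called many more of all features than the fit with all arrays. With only the 0 h and 24 h arrays in the fit, Rprd2 was called at 24 h. That fit called 23.1% of all features, against 6.16% with all arrays. The other 2 Rprd2 probes were below the filter.

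Prpf3, which encodes a protein of the U4/U6 small nuclear ribonucleoprotein of the spliceosome, has 5 probes, and all of them had lower means at 6 h and at 24 h than at 0 h. The brightest had signals of 687.5 and 539.2 at 0 h, 328.6 and 433.4 at 6 h, and 577.3 and 404.5 at 24 h. Its log2 fold change was -0.31 ± 0.12 at 6 h (adjusted p = 0.16) and -0.18 ± 0.12 at 24 h (adjusted p = 0.42). Over the 5 probes the values ran from -0.56 to -0.28 at 6 h and from -0.51 to -0.13 at 24 h, with none called when every probe was tested. These probes share a gene and are not replicates.

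On the other side of Adamtsl4 lie Ensa and Golph3l. Ensa encodes endosulfine alpha, an inhibitor of the phosphatase PP2A when phosphorylated. The brightest of its probes had signals of 513.4 and 433.7 at 0 h, 314.6 and 379.7 at 6 h and 507.0 and 353.4 at 24 h, and after normalisation the 3 times overlapped. Its log2 fold change was -0.08 (interval -0.39 to 0.23) at 6 h and -0.02 (-0.33 to 0.29) at 24 h. Its probe ILMN_3112185 had 0.56 ± 0.15 at 6 h (adjusted p = 0.067), so the Ensa probes did not go one way.

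Golph3l, which encodes a Golgi protein that binds phosphoinositides, had signals of 283.4 and 224.6 at 0 h, 132.1 and 319.7 at 6 h and 367.6 and 216.2 at 24 h. Its 6 h arrays lay on either side of the 0 h arrays. The log2 fold change was 0.05 (interval -0.65 to 0.74) at 6 h and 0.25 (-0.45 to 0.94) at 24 h. This interval is wide because the 6 h arrays disagreed.

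Arnt, the shared partner of the aryl hydrocarbon receptor and the hypoxia-inducible factors, is the farthest of the 5 from Ecm1 in gene order. Its brightest probe had signals of 438.9 and 394.7 at 0 h, 326.1 and 582.3 at 6 h and 539.4 and 479.4 at 24 h. After normalisation all later arrays were above both 0 h arrays, with log2 fold changes of 0.41 ± 0.20 at 6 h (adjusted p = 0.23) and 0.42 ± 0.20 at 24 h (adjusted p = 0.25). Without 6 h replicate 1 the 6 h value was 0.65 and was called (limma adjusted p = 0.032). The 6 Arnt probes disagreed in sign, from -0.50 to 0.41 at 6 h and from -0.77 to 0.42 at 24 h, and none was called.

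**Figure D3:**
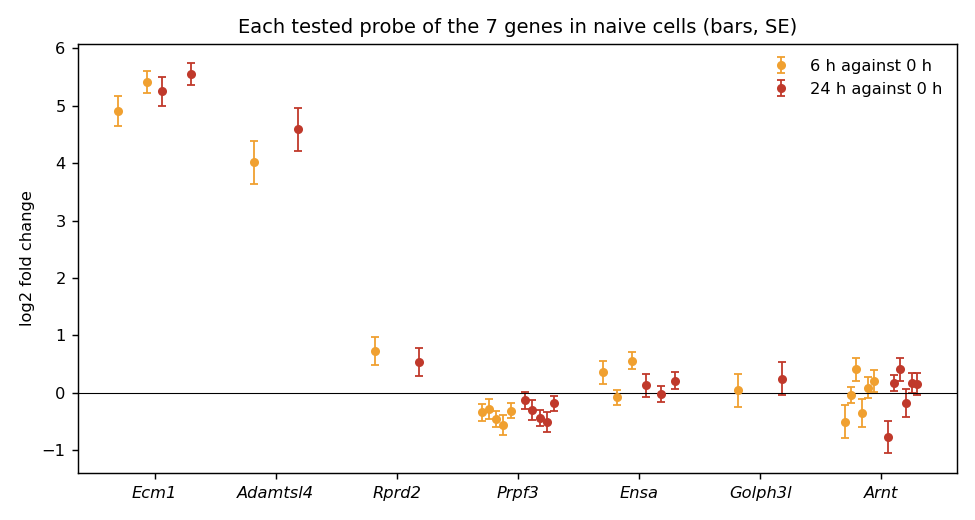
Log2 fold change (y axis) of every tested probe of the 7 genes (x axis) at 6 h and 24 h against 0 h, with bars of 1 SE. The Ecm1 and Adamtsl4 probes lie above 4.0, where the dimmer Ecm1 probe and Adamtsl4 were undetected at 0 h and have bounds only, while the probes of the other 5 genes lie between -0.77 and 0.73.

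To describe the neighbourhood without picking genes, the 15 protein-coding genes on either side of Ecm1 in RefSeq gene order were taken, which is 29 genes besides Adamtsl4. Of these 27 had a probe and 21 passed the detection filter in naive cells. At 6 h against 0 h, 2 of the 21 were called higher, Tars2 and Mtmr11, and 0 lower, which is 9.52% beside a background of 4.1% of features called higher. At 24 h these same genes were called higher and 0 lower, again 9.52%, beside 3.3%. Mtmr11 was undetected at 0 h and passed the filter only through the later arrays, so its calls in these counts are no support for a rise. The median log2 fold change of the 21 was 0.06 at 6 h and 0.25 at 24 h, beside -0.034 and -0.003 over all features. At an unadjusted p under 0.05, 7 of the 21 passed at 6 h and 5 at 24 h, beside 3234 and 2800 of 11065 features. The neighbourhood as a whole was not tested.

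Tars2 had signals of 198.4 and 160.1 at 0 h, 354.7 and 661.4 at 6 h, and 425.5 and 439.9 at 24 h, from its only probe, ILMN_1237311. All 4 later arrays lay above both 0 h arrays. It rose 3.24-fold at 6 h (log2 fold change 1.70 ± 0.23, limma adjusted p = 0.015) and 2.47-fold at 24 h (1.31 ± 0.23, adjusted p = 0.032). The rise was smaller than those described for Ecm1 and Adamtsl4 at either time. The 6 h value was 1.97 without 6 h replicate 1 (adjusted p = 0.00059). Without either 0 h array the calls at both times were lost, with log2 fold changes of 1.65 and 1.73 at 6 h (adjusted p = 0.14 for both), in fits that called only 3 and 4 of all features. The 24 h call was also lost without either 24 h array and with no filter on dim probes (adjusted p = 0.089).

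Mtmr11, a myotubularin-related gene, was not detected at 0 h, where its signals were 6.3 and 6.7. They were 17.7 and 30.9 at 6 h and 46.7 and 20.4 at 24 h, all detected and all higher. It was at least 1.29-fold higher at 6 h and at least 1.41-fold higher at 24 h, close to the limit of detection. The limma calls (adjusted p = 0.045 and 0.040) belong to log2 fold changes of 0.86 and 0.99 measured from the floor, not to these bounds. The probe passed the filter only through the 6 h and 24 h arrays, where it was higher, so the calls are no support for a rise. Its other 3 probes were below the filter. The 6 h call was lost without any one array except 6 h replicate 1, and it held in 3 of the 9 other alternatives. The 24 h call was lost without either 0 h array (adjusted p = 0.246 and 0.206) or either 24 h array (0.211 and 0.149). Both calls were lost with signals raised to a floor of 16 (adjusted p = 0.17 and 0.13).

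The other neighbours tested were not called. Mcl1, an anti-apoptotic gene of the BCL2 family that lies next to Adamtsl4, had signals of 6219.4 and 5172.2 at 0 h, 4710.3 and 7222.2 at 6 h, and 6707.2 and 6545.3 at 24 h. Its log2 fold changes were 0.45 ± 0.17 (adjusted p = 0.15) and 0.47 ± 0.17 (adjusted p = 0.16). Anp32e, which encodes a histone chaperone, had 0.64 ± 0.17 (adjusted p = 0.070) and 0.65 ± 0.17 (adjusted p = 0.080). Ctss, the gene of cathepsin S, a protease of antigen-presenting cells, had -0.28 ± 0.35 and -0.74 ± 0.35, and its signals of 256.3 and 149.0 at 6 h were higher on the array with myeloid transcripts; their part in the result was not tested. Without 6 h replicate 1, 9 of the neighbours were called at 6 h: Anp32e, Aph1a, Arnt, Mcl1, Mtmr11, Otud7b, Rprd2 and Tars2 with positive values and Ctss with a negative one. That fit called 24.3% of all features, against 9.43% with all arrays.

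**Figure D4:**
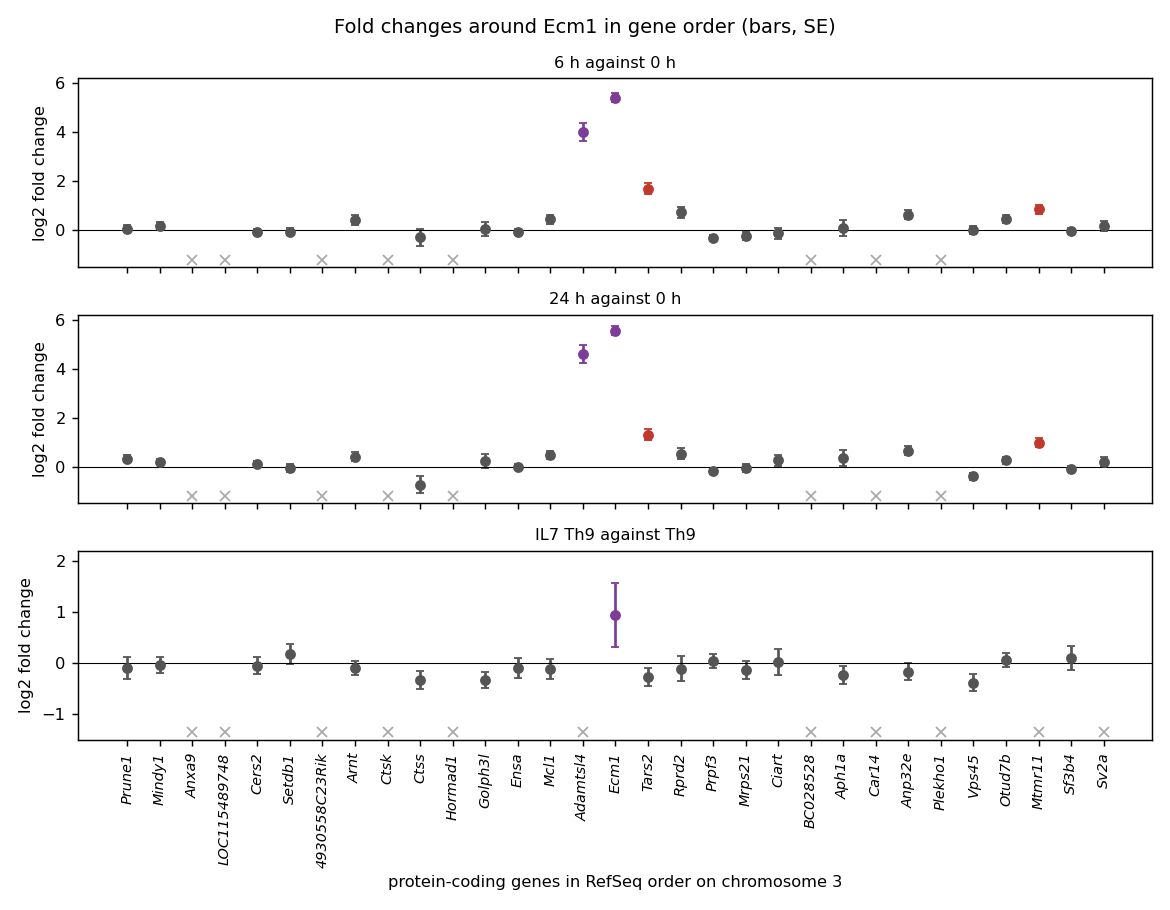
Log2 fold change (y axis, bars of 1 SE) of each protein-coding gene in RefSeq order on chromosome 3, with Ecm1 in the middle, in 3 comparisons. Purple marks Ecm1 and Adamtsl4 and red the neighbours called by limma. A cross at the bottom marks a gene with no tested probe. In naive cells values drop from Ecm1 and Adamtsl4 to Tars2 at 1.70 and 1.31, and no neighbour was called in Th9 cells.

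Between 24 h and 6 h, 0 of 21 neighbours were called by limma, with 1 at an unadjusted p under 0.05, beside a background of 0.398% of features called. Tars2 had -0.39 ± 0.23 on the log2 scale (adjusted p = 0.43). The 5 named genes had values between -0.19 and 0.20. The fit without 6 h replicate 2 called Aph1a and Ctss. It leaves the array with myeloid transcripts as the only one at 6 h, and it called 1476 features, against 44 with all arrays.

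In IL7 Th9 cells against Th9 cells, 0 of the 19 neighbours tested were called by limma and 0 had an unadjusted p under 0.05, beside a background of 0.343% of 9635 features called (0.156% higher and 0.187% lower). Tars2 had signals of 123.3, 126.5 and 160.6 in IL7 Th9 cells, against 257.3, 146.0 and 178.0 in Th9 cells. After normalisation the groups overlapped, with a log2 fold change of -0.27 ± 0.17 (adjusted p = 0.68). The 5 named genes had values between -0.33 (Golph3l) and 0.05 (Prpf3), and the median of the 19 was -0.10, beside -0.012 over all features.

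The difference between the 2 contrasts, 24 h against 0 h in naive cells minus IL7 Th9 against Th9, was tested over all 12 arrays. Of 12248 features 3.75% were called (2.06% higher and 1.69% lower). Of 22 neighbours tested 1 was called. Tars2 had a difference of 1.59 ± 0.30 on the log2 scale (interval 0.94 to 2.25, limma adjusted p = 0.017), so the change over 24 h in naive cells was larger than the difference between IL7 Th9 and Th9 cells. The call was lost without 0 h replicate 1, 0 h replicate 2 or 24 h replicate 2, with values of 1.55, 1.63 and 1.36. None of the 5 named genes was called, with values between -0.24 and 0.61, and 0 of them had an unadjusted p under 0.05.

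Gene order across the genome gives the frequency of such neighbours. Of 4098 pairs of adjacent protein-coding genes with both genes tested, 21 pairs had both called higher at 6 h and 17 at 24 h. Adamtsl4 with Ecm1 and Ecm1 with Tars2 are among these pairs at both times. Taken singly, 4.1% of all features were called higher at 6 h and 3.3% at 24 h. Both genes were at least 4-fold higher in 2 pairs at 6 h, Adamtsl4 with Ecm1 and the TNF receptor genes Tnfrsf4 with Tnfrsf18. At 24 h this held in 1 pair, Adamtsl4 with Ecm1. Of 8441 single genes tested, 39 were at least 4-fold higher at 6 h and 26 at 24 h. Adamtsl4 and Ecm1 were chosen for this pattern, so their place is a description.

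Genes of the families and pathways around Ecm1 and Adamtsl4 were also counted. Of 25 other ADAMTS and ADAMTS-like genes 22 had a probe and 2 were tested in naive cells, Adamts6 and Adamts10, both secreted proteases. By limma 0 of 2 were called at 6 h or 24 h, beside 9.43% and 6.16% of all features called, and 0 and 1 had an unadjusted p under 0.05. The log2 fold changes were -0.38 and -0.41 at 6 h and -0.44 and 0.00 at 24 h. None was tested in the Th9 experiment. A fit without 6 h replicate 1 was added after the values were seen and leaves a lone array at 6 h. There Adamts6 was called lower at both times, unlike in the main fit. That fit called many more of all features than the main fit did. The rest of the family was below the detection filter or had no probe. Of 25 matrix and microfibril genes, 21 had a probe and 3 were tested in naive cells, the fibulin gene Fbln1, Emilin1 and the gelatinase gene Mmp9. Their log2 fold changes ran from -0.27 to 0.04 at 6 h. The -0.27 is that of Fbln1, which was undetected at 6 h and has a bound only, at least 1.02-fold lower. By limma 0 of 3 were called at either time, with 0 at an unadjusted p under 0.05. In the Th9 experiment 0 of 5 were called by limma, beside 0.343% of all features called, and 1, Fbln2, had an unadjusted p under 0.05 (adjusted p = 0.080). Fbln2 was undetected on the IL7 Th9 arrays and passed the filter only through the Th9 arrays. It was at least 1.27-fold lower in IL7 Th9 cells, and its p-value is no support for a fall.

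The interleukin-2 receptor and lymph node exit genes linked to Ecm1 in mouse Th2 cells numbered 9, of which 7 were tested in naive cells. At 6 h 2 rose, 1 fell and 4 did not pass, with a median of 0.31, and at 24 h the counts were the same with a median of -0.12, beside 9.43% and 6.16% of all features called. The same 3 genes were called at both times when 6 h replicate 1 was left out. Il2ra, the interleukin-2 receptor alpha chain, rose by 1.24 ± 0.15 at 6 h (limma adjusted p = 0.012) and 1.83 ± 0.15 at 24 h (adjusted p = 0.0055). Klf2, a transcription factor that maintains lymphocyte trafficking genes, rose by 1.20 ± 0.16 (adjusted p = 0.014) and 0.81 ± 0.16 (adjusted p = 0.039). Jak3 fell by 0.86 ± 0.15 (adjusted p = 0.024) and 1.13 ± 0.15 (adjusted p = 0.016). S1pr1, the sphingosine 1-phosphate receptor used for exit, had 0.70 ± 0.18 (adjusted p = 0.065) and 0.38 ± 0.18 (adjusted p = 0.26), and Il2rb had -0.03 ± 0.27 and -0.12 ± 0.27. Between 24 h and 6 h 0 of 7 were called by limma (3 at an unadjusted p under 0.05), and in IL7 Th9 against Th9 cells 0 of 6 (2 at an unadjusted p under 0.05).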

How the data were processed

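The intensity of each probe is a background-subtracted linear signal exported from GenomeStudio, per the submitters' processing notes (version not given), and can be negative. A detection p-value per probe and array was deposited beside it. In a second deposited table of linear intensity values, probe names did not match the first (Spearman rho -0.008 to 0.002 between the tables, column medians 2.7 to 5.2), and it was not used further; its normalisation and probe order are unknown.

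Gene symbols came from the platform annotation: 34885 probes had 1 symbol, 18 several and 10378 none. RefSeq (GRCm38.p6) gave gene order and promoters, and promoter windows were found for 29 of the 31 genes. Signals were normalised with neqc (offset 16; limma 3.58.1, R 4.3.3) within each experiment. Features detected (p under 0.01) on at least 2 arrays, or 3 in the Th9 experiment, were kept, with the brightest probe per symbol. Fits used lmFit and eBayes, 2-sided, with Benjamini-Hochberg adjustment over all features (3 and 4 residual degrees of freedom). The code was tested on simulated data. The difference between the 2 contrasts used 12 arrays normalised together. The number of arrays limits the precision. Named genes are the 7 members, the 15 genes on either side, the 5 nearest patterns and called list members. Members and lists were chosen with earlier results of these data known. Other background corrections, filters, priors, blocks, windows and arrays left out were tried.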

Additional observations from a re-analysis of the deposited data

Results flagged for a closer look

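Tars2, the neighbour of Ecm1 on the side away from Adamtsl4, differed between the experiments in its contrast of cells with and without IL-7: 24 h against 0 h in naive cells minus IL7 Th9 against Th9 gave 1.59 ± 0.30 on the log2 scale (limma over 12 arrays, adjusted p = 0.017). All 4 naive arrays with IL-7 were above both 0 h arrays, while the IL7 Th9 and Th9 arrays overlapped. The naive cells had IL-7 for 24 h, and the IL7 Th9 cells had it for 48 h before 3 days of growth, so the cell state and the timing cannot be told apart. The call was lost without 0 h replicate 1, 0 h replicate 2 or 24 h replicate 2.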

How the results depend on the processing

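Ecm1 and Adamtsl4 kept their direction at 6 h and 24 h against 0 h under every alternative, with log2 values of 5.25 to 5.76 for Ecm1. Adamtsl4 has bounds only. The count of neighbours called at 6 h was 2, and it was 3 with a trended and robust prior. At 24 h that prior also gave 3, as did the 12 arrays normalised and fitted together. With signals raised to a floor of 16 the 6 h count was 1. It was also 1 with no filter on dim probes and with detection p under 0.05. The 6 h count was 1 again with only the 2 groups compared and with 8 genes on either side. It was 5 with 25 genes on either side and 0 to 9 with 1 array left out, 0 without either 0 h array and 9 without 6 h replicate 1. At 24 h the count was also 2, with 1 at the floor of 16 and with 8 genes on either side, 0 with no filter, 6 with only the 2 groups compared, 4 with 25 genes on either side and 0 to 6 with 1 array left out (6 without either 6 h array). Between 24 h and 6 h it was 0, and 0 to 2 with 1 array left out. In the Th9 experiment it was 0 under every alternative. For the difference between the 2 contrasts it was 1, with 2 under a trended and robust prior, 3 with 25 genes on either side and 0 to 1 with 1 array left out. Over all features the calls at 6 h numbered 1043, with 519 without the filter, 1566 with the trended and robust prior, 180 with only the 2 groups compared and 3 to 2645 with 1 array left out. At 24 h they numbered 682, with 211, 1149, 2466 and 1 to 2418 under the same alternatives. Between 24 h and 6 h they numbered 44 (4 to 173 under the other alternatives, 0 to 1476 with 1 array left out), in the Th9 experiment 33 (4 to 115, and 8 to 62 with 1 array left out), and for the difference 459 (64 to 676 with 1 array left out). The cause of these shifts was not tested.

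Same-numbered arrays did not deviate together (correlations of 0.05, 0.13 and -0.21 in naive cells, and of -0.02, -0.05 and 0.26 in Th9 cells). With 2 or 3 arrays per group these values cannot show whether same-numbered arrays share an animal or a preparation. The main fits treat the samples as unpaired. With the replicate number as a block, the count of neighbours was 1 at 6 h and 1 at 24 h (Tars2), and over all features 681 and 449 were called. Signals near background limit Adamtsl4, Mtmr11 and the dimmer Ecm1 probe to bounds, as they do Fbln1 at 6 h and Fbln2 in the Th9 experiment.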
